A study of Mus musculus with 8 samples.

Results

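Collagen genes were taken as every gene whose symbol in the array annotation is Col, a number, the letter a and a number, and 42 of the 18193 genes with a symbol of their own met this rule. Each gene was read from the probe set with the highest mean signal over the 8 arrays, out of 82 collagen probe sets. By collagen type, 11 genes encode fibrillar chains, 8 encode chains of the basement membrane and 23 encode other types. The genes Col1a1, Col1a2 and Col3a1 belong to the first class, Col4a1 to Col4a6, Col15a1 and Col18a1 to the second, and the beaded filament, fibril-associated, short-chain and transmembrane collagens to the third. The mean signal was above the median of the array medians, 5.40 on the log2 scale, for 23 of the 42 genes, namely 9 fibrillar, 4 basement membrane and 10 other genes.

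Collagens are secreted proteins in which chains with a repeating glycine wind into a triple helix. Fibrillar chains are trimmed outside the cell and pack into the fibrils that give connective tissue its strength, and fibril-associated collagens sit on the surface of these fibrils. Type IV chains form the sheet-like network of basement membranes, and type VI chains form beaded filaments around cells. Fibroblasts are the main source of fibrillar and type VI collagen in connective tissue.

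The arrays were Affymetrix mouse expression arrays hybridized with RNA from 4 populations of mouse adult fibroblasts (MAFs), 2 arrays per population. All cells came from the peritoneal fascia of Rb loxP/loxP mice and carried p53DD, a truncated dominant-negative p53 delivered by a retrovirus. GFP cells had received an adenovirus for GFP and kept RB, whereas Cre cells had received one for GFP and Cre recombinase, which deletes an exon of Rb. Naïve cells were untreated, and Recurred cells had grown back after cisplatin for 24 hours. Infected cells were selected and pooled, so that each population began from a mixture and not a clone. Whether the Recurred cells were still a mixture after cisplatin is not stated. The age of the mice is not given in the sources used here. The labels call the arrays of a population biological replicates, and whether both replicates began from different mice is not stated. The p values therefore measure the spread between these cultures.

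The arrays were alike in overall signal, with medians of 5.37 to 5.41. The signal of Rb1 on its brighter probe set was 7.98 to 8.78 in the 4 GFP arrays and 4.98 to 6.21 in the 4 Cre arrays, which do not overlap. Of 10 fibroblast markers, 10 were above the median signal on each of 6 arrays and 9 on each Cre Recurred array, while of 5 endothelial markers 1 and of 5 macrophage markers 2 were above it on every array. Of 3 measured smooth muscle markers 2, of 4 epithelial 1, of 2 fat 1 and of 1 Schwann cell marker 1 were above it on every array. Of 7 mesothelial markers, 1 to 3 were. In these bulk samples, fewer cells of a type and less RNA per cell cannot be told apart.

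**Figure D1:**
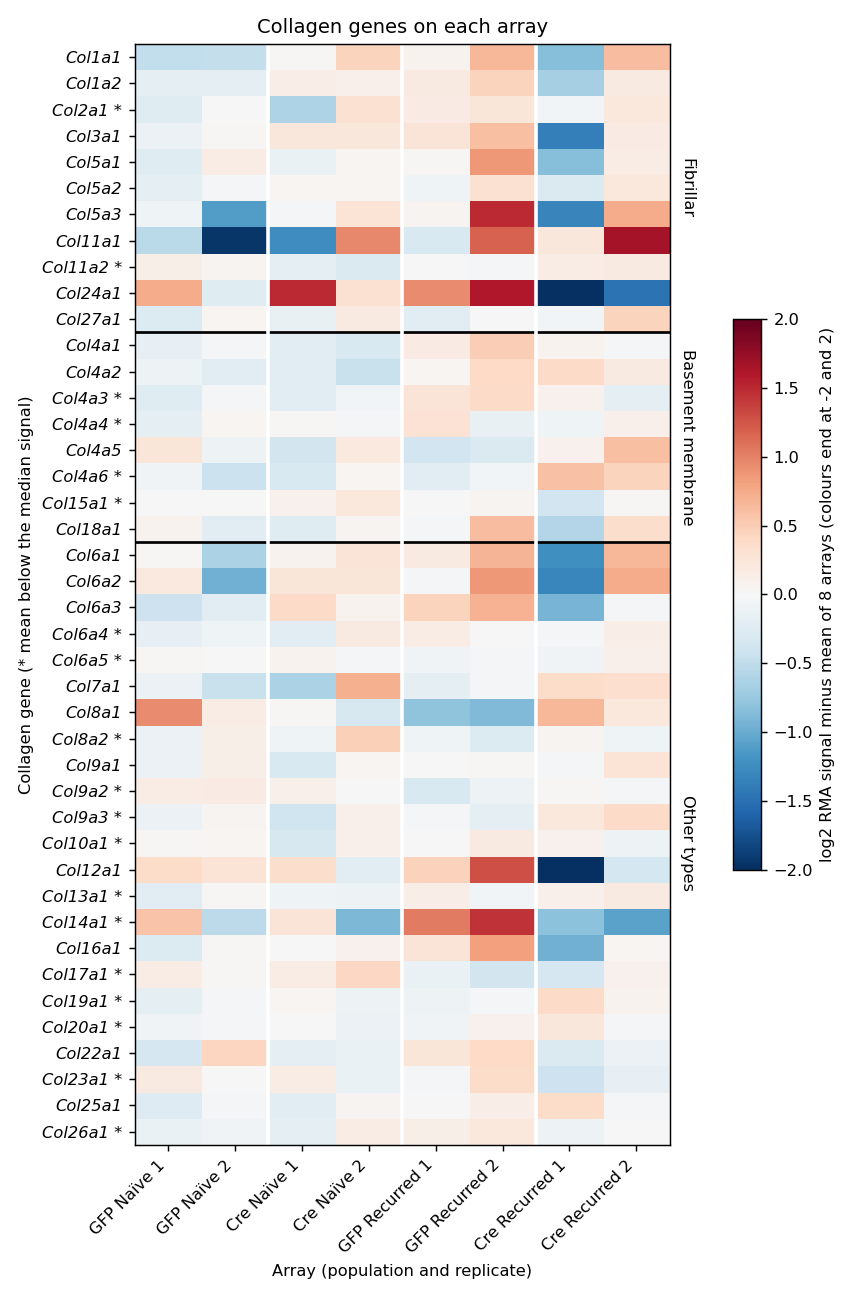
Log2 RMA signal of the 42 collagen genes (rows, by class) on the 8 arrays (columns), each gene shown as the difference from its own mean over the 8 arrays, with colours ending at -2 and 2. The column of Cre Recurred replicate 1 is low in most bright fibrillar and type VI genes, and that of GFP Recurred replicate 2 is high in them.

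Recurred cells without RB were first compared with recurred cells that kept it, the contrast with the most changed genes in these data. Of the 42 collagen genes, 8 differed between Cre Recurred and GFP Recurred cells at the thresholds of the study, a 1.5-fold change and a false discovery rate of 25%, here a limma adjusted p under 0.25. Of all 18193 genes, 11.4% did so. Among genes with a mean above the median signal, 6 of 23 collagens (26.1%) and 16.2% of all such genes passed. Col24a1, Col14a1, Col12a1, Col6a3 and Col16a1 were lower in Cre Recurred cells (11.9% of collagens, against 6.55% of all genes), and Col8a1, Col4a5 and Col4a6 were higher (7.14% against 4.81%). None of them passed the stricter adjusted p of 0.05 in this limma fit, which 1.10% of all genes did. Col8a1, Col14a1 and Col24a1 passed it in a fit of the 4 recurred arrays alone. The share of all genes passing in that fit was not counted, so these calls cannot be set against 1.10%. An unadjusted p under 0.05 was reached by 11 collagens (26.2%, against 20.7% of all genes).

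The fibrillar gene with the greatest difference was Col24a1, which encodes a fibrillar chain related to types V and XI. Its log2 signal was 7.44 and 6.46 in GFP Naïve, 8.20 and 7.01 in Cre Naïve, 7.64 and 8.30 in GFP Recurred, and 3.32 and 5.22 in Cre Recurred cells. The Cre Recurred arrays lay below the 6 other arrays. The log2 fold change between the recurred populations was -3.70 ± 0.68 (SE, limma, adjusted p = 0.0667), or 13-fold lower. Both Cre Recurred values lie below the median signal of 5.40 and differ widely, and the gene has no second probe set. The size of the difference is therefore uncertain.

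Promoters are shown for Col24a1 and Col8a1, the collagens with the lowest and the highest log2 fold change between the recurred populations. Each has 250 bases before and 50 after the annotated start. They were read from the RefSeq annotation of GRCm38.p6 at chr3:145292222-145292521 on the plus strand for Col24a1, and at chr16:57754688-57754987 on the minus strand for Col8a1. Capitals mark matches on either strand to TATAAA, known as the TATA box, to CCAAT, known as the CCAAT box, or to GGGCGG, known as the GC box, and no match of these motifs overlapped another.
Col24a1: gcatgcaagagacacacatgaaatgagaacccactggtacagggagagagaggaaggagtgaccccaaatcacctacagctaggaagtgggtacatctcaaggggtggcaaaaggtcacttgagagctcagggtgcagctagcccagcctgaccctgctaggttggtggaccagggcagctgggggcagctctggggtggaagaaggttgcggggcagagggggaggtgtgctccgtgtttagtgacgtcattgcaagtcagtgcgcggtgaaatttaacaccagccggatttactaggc
Col8a1: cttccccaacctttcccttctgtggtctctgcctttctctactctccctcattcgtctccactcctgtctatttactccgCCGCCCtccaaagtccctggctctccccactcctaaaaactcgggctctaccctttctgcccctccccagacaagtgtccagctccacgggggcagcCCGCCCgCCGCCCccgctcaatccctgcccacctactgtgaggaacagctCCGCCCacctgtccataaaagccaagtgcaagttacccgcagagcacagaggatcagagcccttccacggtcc
The Col24a1 window held 6 CpG dinucleotides and none of the 3 motifs, whereas the Col8a1 window held 12 CpG dinucleotides and 4 GC boxes. Over all 32851 promoters of this length, the median was 7 CpG dinucleotides, and 35.7% held a GC box, 37.4% a CCAAT box and 13.6% a TATA box. Among 36 collagen promoters from 33 of the 42 genes, the median was 11.5 CpG dinucleotides, and 22 (61.1%) held a GC box, 36.1% a CCAAT box and 13.9% a TATA box. Promoters of Col12a1 and Col14a1 were not in the table used here. These matches describe the sequence only.

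Col14a1, Col12a1 and Col16a1 encode fibril-associated collagens, chains that decorate fibrils and link them to other matrix molecules. For Col14a1, the log2 signal was 5.35 and 4.25 in GFP Naïve, 5.04 and 3.88 in Cre Naïve, 5.82 and 6.22 in GFP Recurred, and 3.96 and 3.71 in Cre Recurred cells. The fold change between the recurred populations was -2.18 ± 0.46 on the log2 scale (limma, adjusted p = 0.0828). Both GFP Recurred arrays were above all others, and the mean over all arrays was below the median signal, so that the low arrays bear on a dim probe set. A second probe set of the gene gave -0.71 and passed (limma, adjusted p = 0.15), and another gave 0.12 and did not.

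For Col12a1, the log2 signal was 10.39 and 10.29 in GFP Naïve, 10.37 and 9.79 in Cre Naïve, 10.48 and 11.30 in GFP Recurred, and 7.83 and 9.67 in Cre Recurred cells. Cre Recurred replicate 1 was far below all other arrays and replicate 2 just below the lowest Naïve array. The log2 fold change between the recurred populations was -2.14 ± 0.57 (limma, adjusted p = 0.127), and -1.31 on a second probe set, which passed (limma, adjusted p = 0.231). Col16a1 had log2 signals of 9.77 and 10.33 in GFP Recurred and 8.55 and 9.55 in Cre Recurred cells, against 9.23 to 9.60 in the Naïve arrays, with a log2 fold change of -0.997 ± 0.336 between the recurred populations (limma, adjusted p = 0.2). The GFP Recurred arrays of Col16a1 were the upper pair, and 1 of the Cre Recurred arrays lay within the Naïve range.

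Col6a3 encodes the largest of the type VI chains, which assemble with those of Col6a1 and Col6a2. Its log2 signal was 11.21 and 11.41 in GFP Naïve, 12.01 and 11.70 in Cre Naïve, 12.08 and 12.33 in GFP Recurred, and 10.70 and 11.61 in Cre Recurred cells. The log2 fold change between the recurred populations was -1.05 ± 0.29 (limma, adjusted p = 0.138). Its partners did not pass, with -0.71 ± 0.56 for Col6a1 and -0.71 ± 0.68 for Col6a2 (limma, adjusted p = 0.597 and 0.677). Col6a1 and Col6a2 differed widely between the Cre Recurred replicates, with 9.90 and 11.79 for Col6a1 and 9.57 and 11.61 for Col6a2.

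**Figure D2:**
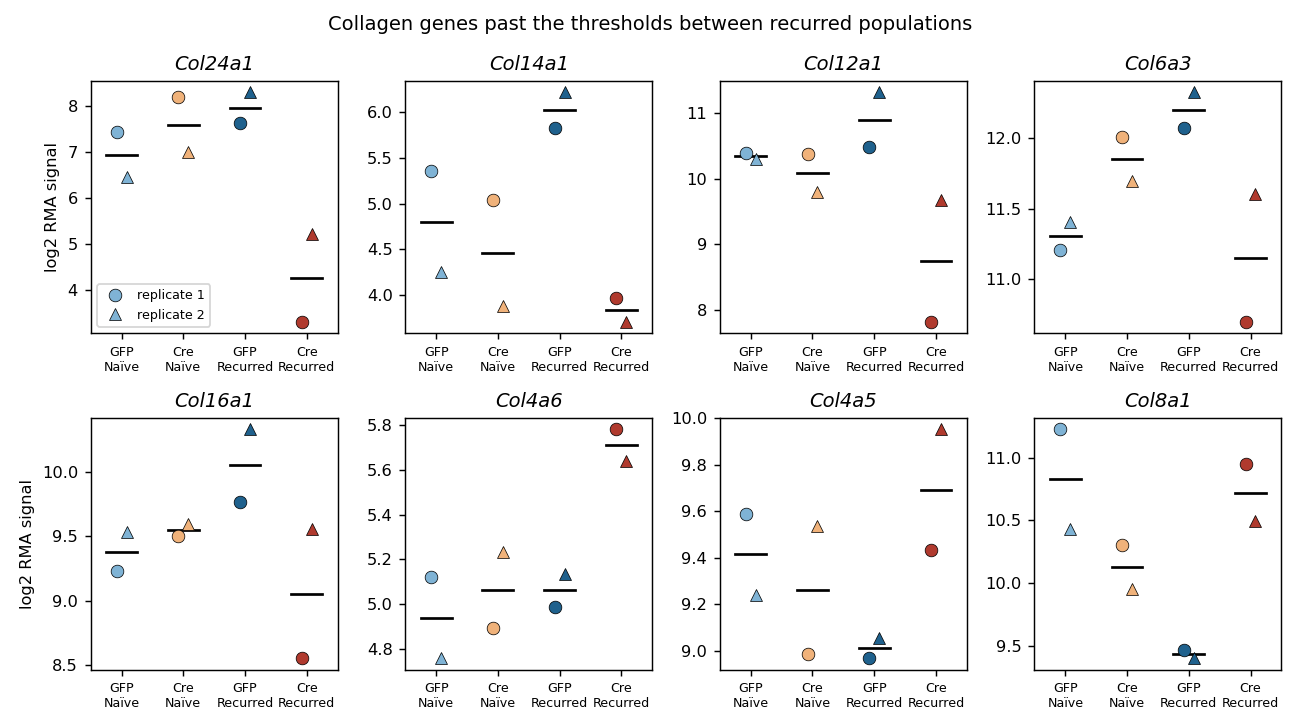
Log2 RMA signal (y axis, each panel with its own range that does not start at 0) of the 8 collagen genes past 1.5-fold and an adjusted p under 0.25 between the recurred populations, by population (x axis). Circles are replicate 1, triangles replicate 2 and bars the mean; Col24a1 in Cre Recurred cells is at 3.32 and 5.22, below the 6 other arrays, and Col8a1 in GFP Recurred cells is at 9.47 and 9.40, the lowest of its panel.

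Col8a1, Col4a5 and Col4a6 went the other way. Col8a1 encodes a short-chain collagen that forms hexagonal networks, as in the matrix beneath endothelia. Its log2 signal was 11.23 and 10.43 in GFP Naïve, 10.30 and 9.95 in Cre Naïve, 9.47 and 9.40 in GFP Recurred, and 10.95 and 10.49 in Cre Recurred cells. The level in Cre Recurred cells was thus within the range of the GFP Naïve arrays, and GFP Recurred cells had the lowest. The log2 fold change between the recurred populations was 1.28 ± 0.28 (limma, adjusted p = 0.0901), with 1.38 and 1.54 on its other 2 probe sets, both of which passed (limma, adjusted p = 0.0483 and 0.14).

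Col4a5 and Col4a6 encode type IV chains that are found together in some basement membranes and lie side by side on chromosome X, read in opposite directions. The log2 signal of Col4a5 was 9.59 and 9.24 in GFP Naïve, 8.98 and 9.54 in Cre Naïve, 8.97 and 9.06 in GFP Recurred, and 9.43 and 9.95 in Cre Recurred cells, with a log2 fold change of 0.68 ± 0.25 between the recurred populations (limma, adjusted p = 0.23). A second probe set of Col4a5 gave 1.10 ± 0.18 (limma, adjusted p = 0.0524). For Col4a6, the log2 signal was 4.76 to 5.23 in the 4 Naïve arrays, 4.99 and 5.13 in GFP Recurred, and 5.78 and 5.64 in Cre Recurred cells, with 0.65 ± 0.18 between the recurred populations (limma, adjusted p = 0.135). Both Cre Recurred arrays were above the 6 others for Col4a6, a gene whose mean lies below the median signal, and Col4a5 overlapped with the Naïve arrays. A second probe set of Col4a6 gave 0.64 and did not pass.

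The windows at the starts of this pair are shown because both genes were higher in Cre Recurred than in GFP Recurred cells. Against Naïve cells, the log2 fold change of Col4a5 after recurrence was -0.40 in GFP and 0.43 in Cre cells. For Col4a6 it was 0.12 and 0.65. The windows are chrX:141475169-141475468 on the plus strand for Col4a5 and chrX:141474027-141474326 on the minus strand for Col4a6 (RefSeq, GRCm38.p6), with capitals as above.
Col4a5: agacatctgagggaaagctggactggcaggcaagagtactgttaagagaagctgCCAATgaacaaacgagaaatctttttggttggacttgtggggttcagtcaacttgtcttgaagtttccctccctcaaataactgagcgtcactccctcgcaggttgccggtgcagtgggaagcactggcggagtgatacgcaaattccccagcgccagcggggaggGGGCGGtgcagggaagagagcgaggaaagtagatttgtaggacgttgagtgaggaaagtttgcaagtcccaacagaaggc
Col4a6: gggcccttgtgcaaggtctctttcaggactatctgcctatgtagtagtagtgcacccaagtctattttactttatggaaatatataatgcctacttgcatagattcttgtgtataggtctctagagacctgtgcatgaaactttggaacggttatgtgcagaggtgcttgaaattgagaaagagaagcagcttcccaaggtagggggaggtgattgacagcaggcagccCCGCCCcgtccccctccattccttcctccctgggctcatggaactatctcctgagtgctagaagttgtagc
The Col4a5 window held 11 CpG dinucleotides, 1 CCAAT box and 1 GC box, and the Col4a6 window 3 CpG dinucleotides and 1 GC box. Of 7 pairs of neighbouring collagen genes on the array, this pair was the one in which both genes passed between the recurred populations. Col4a1 and Col4a2, which encode the most widespread type IV chains from another such pair, gave log2 fold changes of -0.31 and 0.06 and did not pass. Col3a1 and Col5a2, neighbours on chromosome 1, gave -1.04 and -0.14, and neither passed.

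The fibrillar chains that make up most of the collagen of connective tissue did not pass between the recurred populations. Col1a1 and Col1a2, the chains of type I collagen, had log2 fold changes of -0.49 ± 0.45 and -0.56 ± 0.26 (limma, adjusted p = 0.655 and 0.343). Col3a1, the type III chain, had -1.04 ± 0.43 (limma, adjusted p = 0.289), with 13.33 and 13.68 in GFP Recurred and 11.70 and 13.23 in Cre Recurred cells, which do not overlap. The brightest probe set of Col5a1, which encodes a chain that controls fibril width, gave -0.80 ± 0.38 (limma, adjusted p = 0.355), while its other 2 probe sets gave -1.24 and -1.34 and both passed (limma, adjusted p = 0.12 and 0.146). Col5a2 and Col5a3, the other type V chains, gave -0.14 ± 0.21 and -1.06 ± 0.74 and did not pass. Among the remaining basement membrane chains, Col15a1 and Col18a1, which carry heparan or chondroitin sulfate, gave -0.21 and -0.41, and neither passed.

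By class, the median log2 fold change between the recurred populations was -0.49 over 11 fibrillar, -0.14 over 8 basement membrane and 0.07 over 23 other collagens, and 0.04 over all genes. With each array left out in turn, the fibrillar median ran from -0.99 without Cre Recurred replicate 2 to 0.02 without Cre Recurred replicate 1, the basement membrane median from -0.20 to 0.01 and that of the other types from -0.06 to 0.10, with the same arrays left out at the ends. Over the collagens above the median signal, it was -0.56 for the fibrillar class, with 7 of 9 genes negative, -0.13 for the basement membrane class, with 2 of 4 negative, and -0.62 for the other types, with 6 of 10 negative, against 0.01 over all genes above the median signal. The fibrillar class thus had 1 gene lower and none higher at the thresholds, the basement membrane class had 2 higher and none lower, and the other types had 1 higher and 4 lower. No test of a difference between the classes was made. The arrays of the recurred populations did not overlap for 11 collagens lower in Cre Recurred cells (26.2%, against 23.4% of all genes) and 9 higher (21.4%, against 31.7%), shares that lie near or below those of all genes. Col14a1 and Col4a6 among the 8 have means below the median signal.

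**Figure D3:**
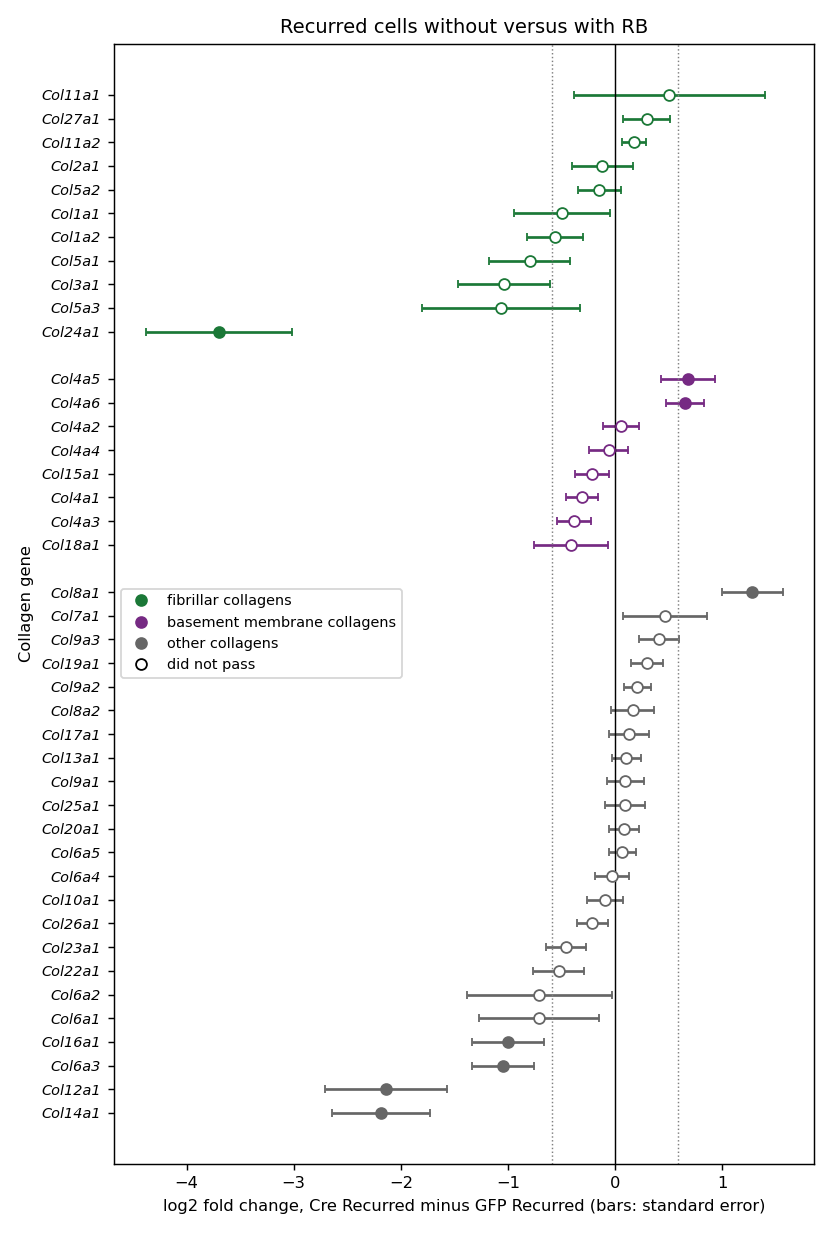
Log2 fold change (x axis, Cre Recurred minus GFP Recurred, bars are the standard error of the limma fit) of the 42 collagen genes (y axis, by class), with filled points for genes past 1.5-fold and an adjusted p under 0.25 and dotted lines at 1.5-fold. Col24a1 stands at -3.70, Col8a1 at 1.28, and the 2 filled basement membrane genes, Col4a5 and Col4a6, at 0.68 and 0.65.

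In no fit with an array of the recurred populations left out were all of these 8 calls kept. Such a fit leaves 1 population with 1 array, and its calls were not set against those of all genes. It cannot show whether the loss or gain of calls is particular to collagens. For Col24a1 the log2 fold change was -4.03 without GFP Recurred replicate 1 and -3.37 without replicate 2, against -3.70 with all arrays. The fold changes of the 8 genes kept their direction without any 1 array. Without Cre Recurred replicate 1 the log2 fold change was -1.22 for Col12a1, -0.50 for Col16a1, -0.59 for Col6a3 and -2.75 for Col24a1, and without Cre Recurred replicate 2 it was -3.06, -1.50, -1.50 and -4.65. For Col4a5 it was 0.94 without Cre Recurred replicate 1 and 0.42 without replicate 2. Of the 34 collagens that did not pass, 16 changed sign without at least 1 array of the recurred populations, 11 of them without Cre Recurred replicate 1. Without that array 8 turned positive, among them Col1a1, Col6a1, Col6a2 and Col18a1 with log2 fold changes of 0.24, 0.23, 0.32 and 0.06. Col11a1 turned negative without GFP Recurred replicate 1 or Cre Recurred replicate 2, with -0.23 and -0.22.

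The spread between the Cre Recurred replicates was wider in collagens than in genes at large. Over the 23 collagens above the median signal, the median size of the difference between the replicates was 0.91 on the log2 scale, against 0.22 over all 11229 genes above the median signal. Replicate 2 was higher in 18 of the 23. In GFP Recurred cells replicate 2 was higher in 22 of 23 collagens, with a median size of 0.36 against 0.16 over all genes, and in GFP Naïve and Cre Naïve cells in 12 and 16 of 23, with median sizes of 0.31 and 0.29 against 0.20 and 0.23. These counts are descriptions. Across the 42 collagens, which are not independent of each other, the differences between replicates in GFP Recurred and in Cre Recurred cells had a Pearson's r of 0.72, against 0.31 over all probe sets, and for the other pairs of populations r over the collagens ran from -0.57 to 0.13. The replicate numbers were not taken as pairs, since the labels do not state pairing, and these correlations cannot show its absence.

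Col1a1 was at 11.92 and 13.39 in Cre Recurred replicates 1 and 2, against 12.28 to 13.45 in the 6 other arrays. Col5a3, a minor fibrillar chain, was at 6.28 and 8.36, and had the widest gap of all 23 genes between these replicates. Col4a1 and Col4a2 were closer, with 11.71 and 11.61 for Col4a1 and 11.36 and 11.15 for Col4a2. The other bright basement membrane genes were further apart, with 9.43 and 9.95 for Col4a5 and 6.41 and 7.35 for Col18a1. The median of the 9 bright fibrillar genes, relative to their means over the 8 arrays, was -0.85 and 0.21 in Cre Recurred cells, 0.06 and 0.67 in GFP Recurred, 0.02 and 0.23 in Cre Naïve, and -0.20 and -0.18 in GFP Naïve cells. The median of the 4 bright basement membrane genes was 0.08 and 0.26 in Cre Recurred, -0.0012 and 0.45 in GFP Recurred, -0.23 and -0.12 in Cre Naïve, and -0.01 and -0.16 in GFP Naïve cells. In the fibrillar class Cre Recurred replicate 1 thus lay below the Naïve arrays and replicate 2 within their range, and in the basement membrane class both lay above them. Cre Recurred replicate 1 also had the lowest mean signal over 10 fibroblast markers, 10.26 against 10.94 to 11.42 on the other arrays, and the part of this in the collagen values was not tested.

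**Figure D4:**
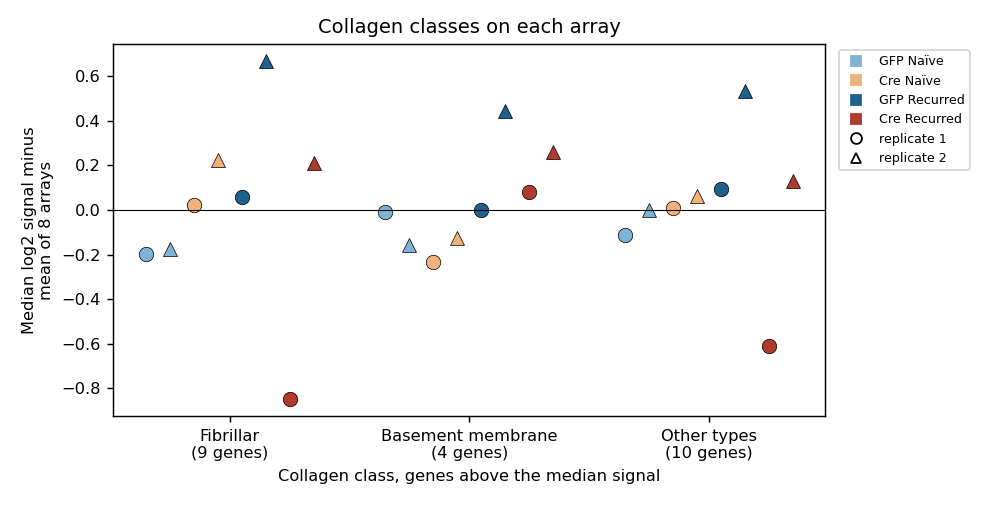
Median over the collagen genes above the median signal (y axis, log2 signal minus each gene's mean over 8 arrays) in each class (x axis), with 1 point per array, colours for the populations and shapes for the replicates. In the fibrillar class the Cre Recurred points lie at -0.85 and 0.21, and in the basement membrane class at 0.08 and 0.26.

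Recurrence in the presence of RB was asked by comparing GFP Recurred with GFP Naïve cells, which showed higher signals of many collagens without any that passed. No collagen passed the study's thresholds, against 0.0165% of all genes (limma). An unadjusted p under 0.05 was reached by 6 collagens (14.3%, against 5.93% of all genes). The SAM-type statistic called 0 probe sets of any gene here, so that its count of 0 collagens is not particular to them. Without GFP Naïve replicate 2 the log2 fold change of Col8a1 was -1.79, against -1.39 with all arrays. Of the 42 genes, 34 had a positive fold change, and the median was 0.22 on the log2 scale, against 0.01 over all genes. The arrays did not overlap for 19 collagens that were higher (45.2%, against 22.1% of all genes) and 6 that were lower (14.3%, against 18.1%). All 9 bright fibrillar genes had positive values, with a median of 0.50 against -0.01 over all bright genes.

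Col1a1 was at 12.28 and 12.30 in GFP Naïve and at 12.85 and 13.45 in GFP Recurred cells, a log2 fold change of 0.86 ± 0.45 (limma, adjusted p = 0.871). Col11a1, a minor chain of cartilage-type fibrils, was at 6.58 and 5.18 in GFP Naïve and at 6.82 and 8.30 in GFP Recurred cells, with 1.68 ± 0.89 (limma, adjusted p = 0.871). Col5a3 gave 1.38 ± 0.74, Col14a1 1.22 ± 0.46, Col24a1 1.02 ± 0.68, Col6a3 0.90 ± 0.29 and Col6a1 0.73 ± 0.56, and in each of these the GFP Recurred arrays lay above the GFP Naïve arrays. Col1a2 gave 0.50, Col3a1 0.48, Col5a1 0.49, Col5a2 0.22, Col6a2 0.80 and Col12a1 0.55. Of the type IV chains, Col4a1 gave 0.43, Col4a2 0.37 and Col4a5 -0.40, while Col18a1 gave 0.37 and Col15a1 0.04. Col8a1 was the exception among the bright genes beside Col4a5, at 11.23 and 10.43 in GFP Naïve and 9.47 and 9.40 in GFP Recurred cells, which do not overlap.

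Recurrence without RB was asked by comparing Cre Recurred with Cre Naïve cells. Col24a1 was the 1 collagen that passed (2.38%, against 1.65% of all genes), with 8.20 and 7.01 in Cre Naïve and 3.32 and 5.22 in Cre Recurred cells, a log2 fold change of -3.33 ± 0.68 (limma, adjusted p = 0.215). It did not pass the stricter adjusted p of 0.05, which 0.0934% of all genes did. The call of Col24a1 was not kept in every fit with an array left out. Over these fits its log2 fold change ran from -4.28 to -2.38. Such fits leave 1 population with 1 array, and their calls were not set against those of all genes. With a trended and robust prior, with the arrays compared only, or with a SAM-type statistic, 0 collagens passed. The SAM-type statistic called 0 probe sets of any gene in this comparison, so that its count is not particular to collagens. By limma, 5 collagens had an unadjusted p under 0.05 (11.9%, against 2552 of 18193 genes in all, or 14%).

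The arrays did not overlap for 8 collagens that were higher after recurrence without RB (of 42, against 27.4% of all genes) and 7 that were lower (16.7%, against 17.8%). Among the lower were Col12a1 with a log2 fold change of -1.33 ± 0.57, Col3a1 with -0.83 ± 0.43 and Col6a3 with -0.70 ± 0.29. Among the higher were Col4a6 with 0.65 ± 0.18, Col4a2 with 0.61 ± 0.17, Col8a1 with 0.59 ± 0.28 and Col4a1 with 0.28 ± 0.15. None of these 7 passed. The class medians were -0.31 for fibrillar, 0.18 for basement membrane and -0.04 for other collagens, against 0.05 over all genes. With each array left out, the fibrillar median ran from -0.79 without Cre Recurred replicate 2 to 0.38 without Cre Recurred replicate 1, so that its sign rests on that array. The basement membrane median ran from 0.09 to 0.33, and that of the other types from -0.11 to 0.07.

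The comparisons of recurred with naïve cells share no array between the GFP and the Cre cells, so their values can be set side by side. Of the 23 bright collagens, 14 (60.9%) had a positive fold change in GFP and a negative one in Cre cells, against 30.6% of all bright genes. Of the 9 bright fibrillar genes 7 did so, with Col11a1 and Col27a1 positive in both. These counts rest on Cre Recurred replicate 1, since without it 4 of 23 bright collagens (17.4%, against 26.4% of all bright genes) and 2 of 9 fibrillar genes did so, whereas without any other array 13 to 16 and 7 to 8 did. Col8a1 and Col4a5 were the pair with a negative value in GFP and a positive one in Cre cells. Of the 4 bright basement membrane genes, Col4a1 and Col4a2 were positive in both. Over the 23 genes Pearson's r between these fold changes was -0.33, and over all bright genes it was -0.32, across genes that are not independent of each other.

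**Figure D5:**
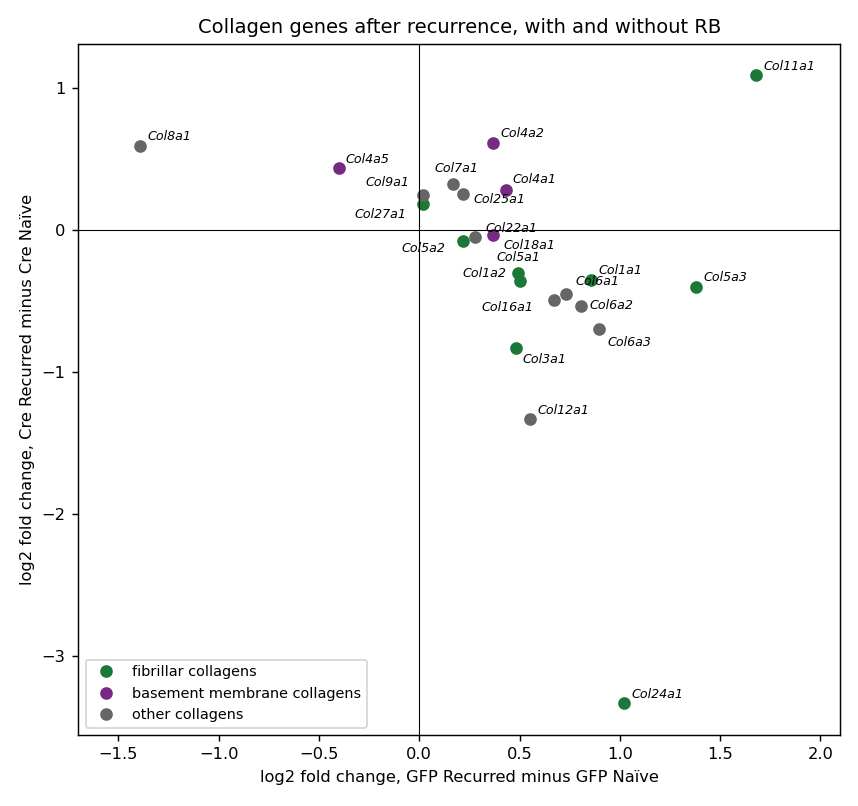
Log2 fold change after recurrence in GFP cells (x axis) and in Cre cells (y axis) for the 23 collagen genes above the median signal, coloured by class, with all 8 arrays. 14 genes lie at the lower right, higher in GFP Recurred and lower in Cre Recurred cells, and Col8a1 and Col4a5 lie in the upper left.

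The difference between these changes was tested as the interaction of RB status with recurrence. No collagen passed on its brightest probe set, against 0.539% of all genes, while 7 had an unadjusted p under 0.05 (16.7%, against 12.4% of all genes) and Col8a1 passed with a trended and robust prior. The interaction of Col24a1 was -4.35 ± 0.96 on the log2 scale (limma, adjusted p = 0.309), that of Col6a3 -1.60 ± 0.41 (limma, adjusted p = 0.339) and that of Col8a1 1.99 ± 0.40 (limma, adjusted p = 0.266). The second probe set of Col8a1 passed, with 2.12 ± 0.30 (limma, adjusted p = 0.175). Its log2 signal was 10.22 and 9.82 in GFP Naïve, 9.39 and 9.19 in Cre Naïve, 8.89 and 8.52 in GFP Recurred, and 10.28 and 9.90 in Cre Recurred cells. The calls of the interaction changed in some fits with an array left out, which leave 1 population with 1 array. These calls were not set against those of all genes.

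The effect of RB deletion in untreated cells was asked by comparing Cre Naïve with GFP Naïve cells. No collagen passed, against 0% of all genes. An unadjusted p under 0.05 was reached by 2 collagens, Col8a1 and Col11a2 (limma, 4.76%, against 2.45% of all genes). The SAM-type statistic called 0 probe sets of any gene here, collagens among them. Col1a1 was at 12.28 and 12.30 in GFP Naïve and 12.80 and 13.22 in Cre Naïve cells, with a log2 fold change of 0.72 ± 0.45, and Col8a1 gave -0.70 ± 0.28. Col6a3 gave 0.55, Col6a2 0.63, Col6a1 0.47, Col5a3 0.71, Col3a1 0.28 and Col1a2 0.30, each with Cre Naïve arrays above GFP Naïve arrays. Col11a1 gave 1.10 ± 0.89 and Col24a1 0.65 ± 0.68, with arrays that overlap, and over all 42 genes the values ran from -0.70 for Col8a1 to 1.10 for Col11a1. Of the bright genes, 9 of 9 fibrillar collagens had positive and 4 of 4 basement membrane collagens negative values, with medians of 0.30 and -0.16, and neither class was tested.

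Enzymes and partners that process collagen were described from 6 lists. Between the recurred populations, 5 of 20 measured genes of chain modification and folding passed, and the counts of these lists and of the markers stand against the 11.4% of all genes that passed there. P3h3 and P3h4, which act in lysine and proline hydroxylation of the chains, had log2 fold changes of -1.06 and -0.79, Fkbp14, a prolyl isomerase that assists folding, gave -1.38, and Hspa5, the general chaperone of the endoplasmic reticulum, -0.60. Colgalt1, which adds galactose to hydroxylysine, rose by 0.74, with 11.80 and 11.78 in Cre Recurred and 10.97 to 11.26 on the 6 other arrays. Of 13 measured genes for secretion and propeptide cleavage, Pcolce2, an enhancer of C-propeptide removal, passed with 1.34. Of 5 measured crosslinking enzymes, Loxl4 rose and Loxl3 fell, and Loxl4 was at 6.08 and 6.35 in GFP Recurred and 8.56 and 8.04 in Cre Recurred cells, a log2 fold change of 2.08 ± 0.27 (limma, adjusted p = 0.0403).

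Of 11 measured genes of collagen breakdown, 3 were lower in Cre Recurred than in GFP Recurred cells and none higher. Ctsk, a collagen-cleaving cathepsin, was at 9.60 and 9.43 in GFP Recurred and 5.39 and 4.69 in Cre Recurred cells, a log2 fold change of -4.47 ± 0.62 (limma, adjusted p = 0.0415). Mmp13, a collagenase, gave -4.17 ± 0.90 (limma, adjusted p = 0.0871), and Mmp2, a gelatinase, -1.90 ± 0.46 (limma, adjusted p = 0.105). Mmp13 was at 10.06 and 10.58 in GFP Recurred and at 7.55 and 4.75 in Cre Recurred cells. In GFP Naïve cells it was at 8.73 and 8.75, and in Cre Naïve cells at 9.37 and 7.57. Mmp2 was at 12.91 and 12.90 in GFP Recurred and at 10.60 and 11.40 in Cre Recurred cells. In GFP Naïve cells it was at 11.75 and 11.86, and in Cre Naïve cells at 12.75 and 11.29. Of 9 measured collagen receptors, Itgb1, the beta chain of the collagen-binding integrins, was higher by 0.69, and Ddr2, a receptor kinase for fibrillar collagen, had -0.77. Of 15 measured partners in basement membranes, Lama4, Nid1 and Agrn were lower, with -2.90, -1.08 and -1.04, and Lama2 was higher, with 1.26. The list medians ran from -0.72 for crosslinking to -0.04 for receptors, against 0.04 over all genes.

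After recurrence without RB, Colgalt1 and Loxl4 were higher and Ctsk was lower than in Cre Naïve cells, with log2 fold changes of 0.63, 1.22 and -3.47 (limma, adjusted p = 0.236, 0.249 and 0.16), and Loxl4 passed the interaction with 2.15. Between Cre Recurred and Cre Naïve cells 3 of the 73 measured genes of these lists passed, against 1.65% of all genes. In the 2 other comparisons none of the 73 passed (limma). An unadjusted p under 0.05 was reached by 5 of them between GFP Recurred and GFP Naïve cells, against 5.93% of all genes. It was reached by 1 between the Naïve populations, against 2.45% of all genes. Of markers, Fap, Prrx1 and Dcn were lower and Thy1 higher among 10 fibroblast genes between the recurred populations, and Msln and Krt19 were higher among 7 mesothelial genes. The mean log2 signal of these 7 was 5.23 and 5.22 in Cre Recurred and 4.73 and 4.70 in GFP Recurred cells. Their median log2 fold change was 0.04, with 2 of the 7 negative, so that the list did not rise as a whole. Des was higher among 3 smooth muscle genes, and no gene passed in the endothelial, macrophage, epithelial, Schwann cell or fat lists. Their part in the collagen values was not tested.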

How the data were processed

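RNA of the 4 MAF populations was hybridized to 8 one-colour Affymetrix arrays, 2 per population. The values as deposited by the authors are on the log2 scale and come from RMA (Robust Multichip Average): background correction, quantile normalization over the arrays and 1 summary per probe set, with software not given in the sources used here. Quantile normalization makes the arrays' distributions alike, so that a shift common to most genes would not be seen. No array was left out, and the range of the values fits a log2 scale.

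Of 45101 probe sets, 64 controls were left out and 45037 entered the linear model of limma 3.58.1 (R 4.3.3), in which each population had its own mean, and p values were adjusted over all of them by Benjamini-Hochberg. Residual and prior degrees of freedom were 4 and 3.07. The study called changes with SAM at 1.5-fold and a false discovery rate of 25%. Here limma was used at 1.5-fold and an adjusted p under 0.25, or under 0.05 as the stricter threshold, and a SAM-type statistic was an alternative. With 2 arrays a group, an exact two-sided permutation test could not go below 0.333, and the small number of arrays limits the precision. The limma procedure was tested on simulated data. Errors are standard errors of the fit.

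Gene symbols came from the platform annotation, by which 34945 probe sets had 1 symbol, 932 several and 9160 none. For each gene the probe set with the highest mean was used. Of the 42 collagens 27 had several probe sets, and of 12 with 2 or more bright ones, all had the same sign between GFP Recurred and GFP Naïve cells, 11 between the recurred populations (Col18a1 differed), 10 between Cre Recurred and Cre Naïve cells and 8 between the Naïve populations. Levels of different probe sets were not compared. Collagens were named when they passed, when they were among the largest changes without overlap of the arrays, to at most 8 per comparison, or when they were common fibroblast chains. From 6 pathway lists and 8 marker lists, genes that passed were named. Some genes of these lists are not reported here. The members and lists were chosen with earlier results of these data known. Promoter windows came from RefSeq (GRCm38.p6), and figures were drawn with matplotlib 3.10.9 in Python 3.11.15.

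Same-numbered arrays were checked for pairing by the correlation of the replicate differences over all probe sets. It ran from -0.26 to 0.31 over the 6 pairs of populations (-0.57 to 0.72 over the collagens). Of the arrays, GFP Naïve 1 and Cre Naïve 1 were nearest to each other (r = 0.9941), as were Cre Naïve 2 and Cre Recurred 2 (0.9917). The GFP Recurred arrays were nearest to each other (0.9953), Cre Recurred 1 to Cre Recurred 2 (0.9900), and GFP Naïve 2 to GFP Recurred 1 (0.9905). These values cannot show whether same-numbered arrays share a start, which the labels do not state. The numbers were not used as a block in the main fit. Alternatives were a trended and robust prior, cyclic loess, median centring, the replicate block, probe sets above the median mean, probe sets without shared-probe suffixes, the mean of all probe sets of a gene, the compared arrays alone, the SAM-type statistic, type IV chains alone for the basement membrane class, and leaving out each array.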

Additional observations from a re-analysis of the deposited data

Results flagged for a closer look

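The response of Col8a1 to recurrence differed between cells with and without RB on 1 of its 3 probe sets, by a test of the difference itself. On this second brightest probe set the interaction of RB status with recurrence was 2.12 on the log2 scale (limma, adjusted p = 0.175), with a log2 fold change of -1.32 in GFP cells and 0.80 in Cre cells. The other 2 probe sets gave 1.99 and 2.60 and did not pass (limma, adjusted p = 0.266 and 0.315).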

How the results depend on the processing

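Between the recurred populations 8 collagens passed, 4 with the SAM-type statistic (Col4a6, Col8a1, Col14a1 and Col24a1) and 0 to 15 with each array left out. Between Cre Recurred and Cre Naïve cells 1 passed, and 0 did with a trended and robust prior, with the replicate block, with the compared arrays alone and with the SAM-type statistic, and 0 to 9 with each array left out. Between GFP Recurred and GFP Naïve cells 0 passed in the main fit. For the interaction the count was 0, 0 to 11 with each array left out, and 1 (Col8a1) with a trended and robust prior, median centring, the replicate block, probe sets above the median mean or the mean of all probe sets. The replicate block gave 10 calls between the recurred populations, adding Col3a1 and Col5a1, and whether same-numbered arrays are paired is not known. The median log2 fold change of all collagens was 0.48 between GFP Recurred and GFP Naïve cells, -0.49 between the recurred populations and -0.59 for the interaction without dim probe sets, against 0.22, -0.11 and -0.14. With each array left out it ran from -0.094 to 0.123 between Cre Recurred and Cre Naïve cells, from -0.227 to 0.041 between the recurred populations and from -0.321 to -0.0573 for the interaction. Between the recurred populations the sign of 16 collagens that did not pass turned with an array left out, among them with ranges of -1.23 to 0.24 for Col1a1, -0.39 to 0.10 for Col5a2 (0.06 without GFP Recurred replicate 2), -0.12 to 0.24 for Col4a2 (-0.04 without Cre Recurred replicate 1), -0.882 to 0.0567 for Col18a1, -1.66 to 0.23 for Col6a1 and -1.73 to 0.32 for Col6a2. Cyclic loess ended the call of Col4a5, and leaving out dim probe sets those of Col4a6 and Col14a1. The cause of these changes was not tested, beyond the fewer arrays or probe sets that some of these settings hold. A population left with 1 array takes its spread from the remaining populations.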
